A study of Mus musculus with 2 samples.

Results

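The genes described here make, move and use lactate and pyruvate: the lactate dehydrogenase genes Ldha, Ldhb and Ldhd, the monocarboxylate transporter genes Slc16a1, Slc16a3 and Slc16a7, the transporter partner gene Bsg, and the mitochondrial pyruvate carrier genes Mpc1 and Mpc2. They were taken by symbol from the deposited table, where all 9 were found among 30868 listed features. RNA had been sequenced from MIN6, a mouse insulinoma line used as a beta cell model, giving 1 library for the label normal and 1 for the label high glucose and palmitate, the latter called the treated library below. For the treated cells the labels give palmitate at 0.4 mmol/l and glucose at 33.3 mmol/l, in medium that held 0.5% albumin from bovine serum. The same text stands on the record of the normal cells, so their medium during the experiment is not stated apart. The library titles, NGP for normal and HGP for treated, do not say whether the normal cells also had palmitate. The growth medium of both groups of cells held 1 mmol/l sodium pyruvate, a substrate of several of the proteins encoded by these genes. The series asks how lactate dehydrogenase A bears on histone lactylation and on beta cell function when glucose is toxic.

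Lactate dehydrogenase interconverts pyruvate and L-lactate with NADH and NAD+. The enzyme is a tetramer of A subunits, from Ldha, and B subunits, from Ldhb, and A-rich forms are commonly linked with lactate production and B-rich forms with lactate use. Monocarboxylate transporters carry lactate and pyruvate together with a proton across the plasma membrane, and pyruvate enters mitochondria through a carrier built of MPC1 and MPC2. Primary beta cells are known for very low Ldha and Slc16a1, which keeps glucose carbon going into mitochondria and keeps circulating pyruvate from triggering insulin release. Insulinoma lines are not bound to keep that repression.

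With 1 library per group nothing here has a replicate check and no test was made, so "higher" and "lower" compare these libraries, not the conditions. Levels are RPKM, reads per kilobase of a gene's merged exons and per 1000000 assigned reads, and ratios are treated over normal. Brackets hold 95% intervals that cover counting error only. The normal library held 44149406 reads and the treated library 43727919. Beta cell markers were present in both, all 9 at a mean RPKM of at least 1, with summed levels of 6211 and 5668 RPKM. Most of that sum was Iapp, the islet amyloid polypeptide gene, at 4664 and 4692 RPKM. Of the 9 markers, 8 had counting intervals wholly below 1, against 22.3% of the 13947 features that reached the same mean. Such intervals narrow as reads increase, so markers with many reads pass this rule at small differences. The ratios of these 8 ran from 0.527 for Ins1 and 0.606 for Ins2 to 0.886 for Nkx6-1. That of Iapp was 1.01 (0.9996 to 1.01). In 4 of the markers, Ins1, Ins2, Mafa and G6pc2, the ratio was below that of Ldha given further on. Most beta cell markers were thus lower in the treated library alongside Ldha, Mpc1 and Mpc2. Of the other cell types looked for, the summed levels were at most 2.10 RPKM for acinar, immune, endothelial, fibroblast, and PP and epsilon markers, and at most 9.68 RPKM for alpha and delta markers. Of the ductal markers, Krt19 was at 0 in both libraries, Sox9 had no normal read, and Spp1 gave nearly all of the summed 225.7 and 393.5 RPKM. Among immune markers Cd68 went from 0.901 to 2.02 RPKM, while Ptprc stayed below 0.1 and Adgre1 had 2 reads and 0 reads. The part of these markers in the results was not tested.

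The stretches before the gene starts are shown for Ldha, Slc16a3, Slc16a1 and Ldhb, a choice made by their ratios. Ldha and Slc16a3 were lower in the treated library, Slc16a3 from only 29 and 8 reads, while Ldhb was higher and Slc16a1 differed little. Each stretch is the 250 bases before an annotated start, from RefSeq promoters of build GRCm38.p6, whose coordinates are not those of the deposited table. Entries were found for 7 of the 9 genes, and Ldha and Mpc1 have a pair of starts each. Capitals mark ACGTG on either strand, the core letters of the element bound by hypoxia-inducible factors, and CACGTG, the E-box read by Myc and related factors, which contains the core on both strands.
Ldha, chr7:46845554-46845803, plus strand: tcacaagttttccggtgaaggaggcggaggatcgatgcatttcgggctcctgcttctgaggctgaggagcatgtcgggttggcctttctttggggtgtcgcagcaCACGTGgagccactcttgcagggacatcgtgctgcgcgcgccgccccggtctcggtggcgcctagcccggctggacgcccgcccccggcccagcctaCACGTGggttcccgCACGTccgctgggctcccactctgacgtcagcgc
Ldha, second start, chr7:46846832-46847081, plus strand: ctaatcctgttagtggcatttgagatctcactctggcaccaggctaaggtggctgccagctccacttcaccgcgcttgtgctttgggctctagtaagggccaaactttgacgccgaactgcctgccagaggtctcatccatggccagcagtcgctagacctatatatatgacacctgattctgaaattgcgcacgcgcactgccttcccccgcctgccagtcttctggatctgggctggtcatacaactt
Slc16a3, chr11:120948817-120949066, plus strand: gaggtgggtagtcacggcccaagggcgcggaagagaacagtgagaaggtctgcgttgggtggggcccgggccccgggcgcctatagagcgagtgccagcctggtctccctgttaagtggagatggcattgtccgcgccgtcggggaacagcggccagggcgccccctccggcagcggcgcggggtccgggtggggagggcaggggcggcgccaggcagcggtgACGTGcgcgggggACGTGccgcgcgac
Slc16a1, chr3:104638414-104638663, plus strand: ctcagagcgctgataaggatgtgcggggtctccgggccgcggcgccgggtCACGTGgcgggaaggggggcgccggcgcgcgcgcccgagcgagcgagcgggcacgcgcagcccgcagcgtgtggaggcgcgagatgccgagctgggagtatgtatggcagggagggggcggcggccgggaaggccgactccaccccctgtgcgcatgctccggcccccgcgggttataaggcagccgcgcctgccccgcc
Ldhb, chr6:142507958-142508207, minus strand: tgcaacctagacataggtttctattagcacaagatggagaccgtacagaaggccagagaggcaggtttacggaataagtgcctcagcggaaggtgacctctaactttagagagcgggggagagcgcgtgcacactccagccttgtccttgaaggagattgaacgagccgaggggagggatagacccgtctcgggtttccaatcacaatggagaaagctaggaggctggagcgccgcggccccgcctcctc
The first Ldha window held 3 separate stretches with the core, 2 of them full E-boxes at positions -145 and -48 counted from the start. The Slc16a3 window held 2 cores at positions -27 and -14 and no E-box, and the Slc16a1 window held 1 E-box at position -200. No match to these letters was found in the second Ldha window or in that of Ldhb. The windows of Mpc1 and Mpc2, not shown, also held no match, and both genes were lower in the treated library. Any part of these letters in the ratios was not tested. Of all 32851 windows of the same length, 16.6% held the core and 6.02% the E-box. Among the 9 windows of these genes, 4 held the core and 3 the E-box, the third E-box being that of Ldhd. A match is a description of letters, and the binding of any factor was not measured here.

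Levels of the 9 genes ranged over 4 orders of magnitude. Bsg was highest, with a normal level of 338.6 and a treated level of 288.2 RPKM, and it ranked 91st and 113th among all features. Ldha followed at 30.8 and 23.3 RPKM and Slc16a1 at 16.1 and 17.1 RPKM. The next were Mpc1, Ldhb, Ldhd and Mpc2, between 1.06 and 3.95 RPKM in either library. Slc16a3 and Slc16a7 were at most 0.124 RPKM. Some neighbours in that order could not be separated. In the normal library the counting intervals of Ldhd, 1.35 to 1.67 RPKM, and of Mpc2, 1.35 to 1.62 RPKM, overlapped. Mpc1 stood above Ldhb in the normal library, at 3.73 (3.35 to 4.15) against 3.02 (2.62 to 3.45) RPKM with overlapping intervals. In the treated library the order was turned, with Ldhb at 3.95 (3.49 to 4.45) and Mpc1 at 2.99 (2.64 to 3.36) RPKM and no overlap. These orders hold for merged exon lengths and not for the transcript lengths given below.

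**Figure D1:**
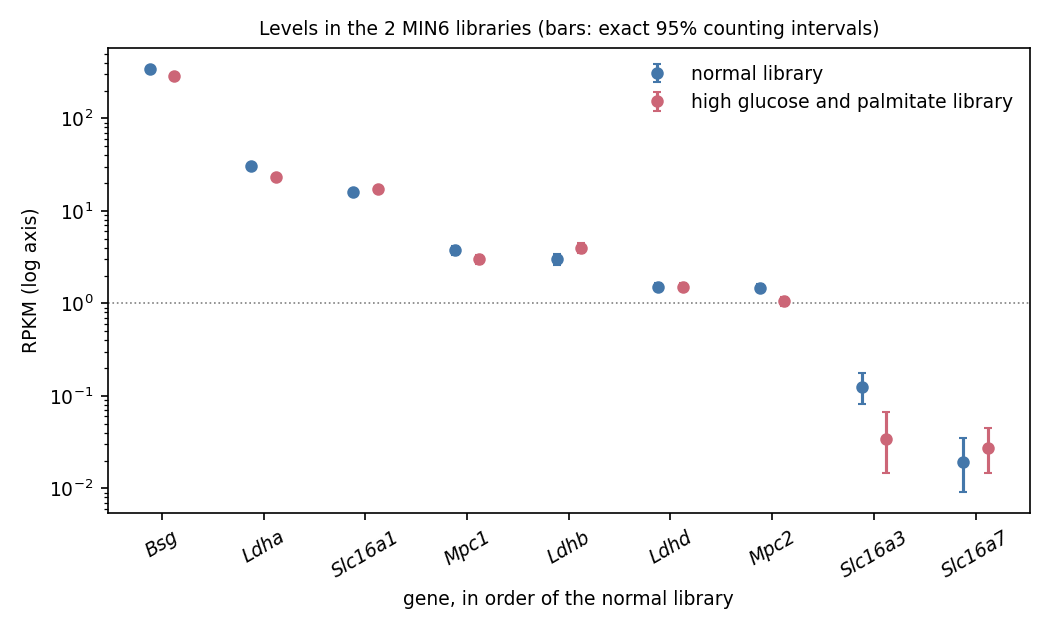
Level of each gene in RPKM on a log axis, with 1 point per library and exact 95% counting intervals, in the order of the normal library; the dotted line marks 1 RPKM. Bsg stands at 338.6 and 288.2 RPKM, Ldha and Slc16a1 between 16.1 and 30.8, and Slc16a3 and Slc16a7 at or below 0.124.

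The order also depends on what counts as the length of a gene. The deposited table divides by all merged exons, which for Mpc2 come to 7344 bases, 7.16 times its principal transcript of 1025 bases in GENCODE M21. For Slc16a1 both lengths were 4426 bases. Dividing by the length of the principal transcript put Mpc2 above Mpc1, at 10.6 against 8.44 RPKM in the normal library and 7.56 against 6.76 in the treated one. Ldha then stood at 64.1 and 48.6. By the same length Mpc1 was above Ldhb in both libraries, with Ldhb at 3.63 (normal) and 4.75 RPKM (treated). Ldhd, at 3.53 RPKM in the normal library, was then well below Mpc2. Ratios between the libraries do not change with the length.

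Of the 9 genes, 7 reached a mean of 1 RPKM, each of them with more than 1 RPKM in both libraries, and were counted on the scale of log2 of RPKM plus 0.5. At least 1.2-fold lower in the treated library were 3 of the 7, Ldha, Mpc1 and Mpc2, against 8.84% of all 13947 features with such a mean. At least 1.2-fold higher was 1 of the 7, Ldhb, against 8.68% of all features. None of the 7 was lower or higher by 1.5-fold, which 1.48% and 1.74% of all features were, or by 2-fold, which 0.366% and 0.538% were. The median log2 ratio of the 7 was -0.23 and that of all features 0.0028, with 5 of the 7 below 0 against 49.3% of all features. Counting intervals were wholly below 1 for 4 of the 7 and wholly above 1 for 2, against 22.3% and 22% of all features. That interval narrows with the number of reads, so well expressed genes pass it at small differences.

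**Figure D2:**
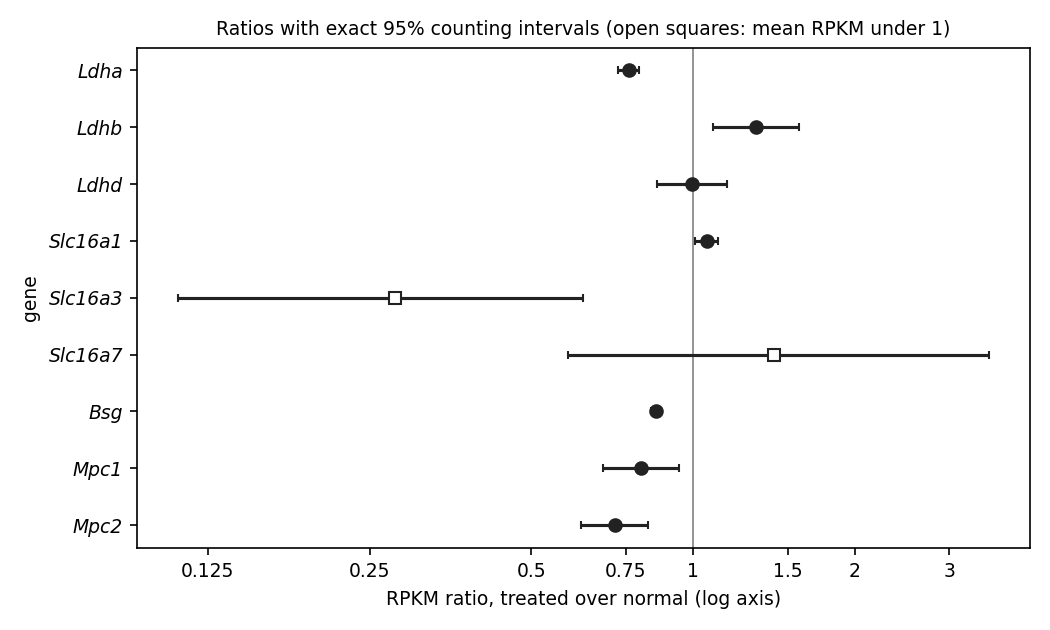
RPKM ratio of each gene, treated over normal, on a log axis with its exact 95% counting interval; filled circles are genes with a mean RPKM of at least 1 and open squares those below it. Ldha at 0.759 and Ldhb at 1.31 lie on opposite sides of 1, and the widest intervals belong to Slc16a3 and Slc16a7.

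The subunit genes of lactate dehydrogenase went in opposite directions, and in RNA from whole cultures fewer expressing cells and less RNA per cell cannot be told apart. Ldha is encoded on the plus strand of chromosome 7 from 46490899 to 46505051, in GRCm39 as for all genes here, and had 4495 normal and 3378 treated reads. Its level went from 30.8 to 23.3 RPKM, a ratio of 0.759 (0.725 to 0.794). Of those 13947 features, 4.15% had a log2 ratio as low or lower. Ldhb is encoded on the minus strand of chromosome 6 from 142435975 to 142453683 and had 209 and 271 reads. Its normal and treated levels were 3.02 and 3.95 RPKM, a ratio of 1.31 (1.09 to 1.58), and 5.36% of features had a log2 ratio as high or higher. The intervals of the levels in the 2 libraries did not overlap for either gene. For Ldhb they were narrowly apart, with an upper bound of 3.45 RPKM (normal) and a lower bound of 3.49 RPKM (treated). The share of all features with such a gap was not counted. By the related rule, 22.3% of features had a ratio interval wholly below 1 and 22% wholly above 1, so such gaps are not particular to these genes. If both mates of each pair had been counted, the interval of the ratio would be 0.712 to 0.809 for Ldha. For Ldhb it would be 1.007 to 1.71, only just above 1.

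Within each library the balance of the subunit genes can be read without any scaling between libraries. Ldha made up 91.1% (89.9 to 92.2) of the summed levels of Ldha and Ldhb in normal cells and 85.5% (83.9 to 87.0) in treated cells. The share of Ldhb was correspondingly 8.93% and 14.5%. The level of Ldha was 10.2 times that of Ldhb among normal reads and 5.91 times that of Ldhb among treated reads. That quotient was thus 0.580 times as large in the treated library (0.479 to 0.701). The A subunit gene stayed the main one in both libraries. The summed level of both genes went from 33.8 RPKM (normal) to 27.3 RPKM (treated), a ratio of 0.808. With transcript lengths, the share of Ldha was 94.6% (normal) and 91.1% (treated).

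**Figure D3:**
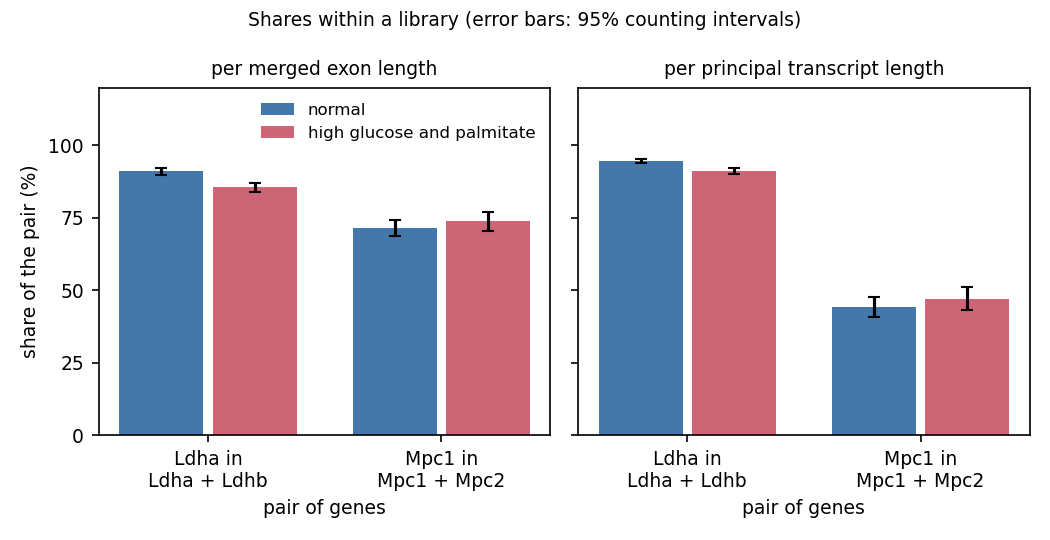
Share of Ldha in the summed Ldha and Ldhb levels and of Mpc1 in the summed Mpc1 and Mpc2 levels, in percent, for each library, with 95% counting intervals; levels are per merged exon length on the left and per principal transcript length on the right. The Ldha share is lower in the treated library under both lengths (85.5% against 91.1%, and 91.1% against 94.6%), while the Mpc1 share lies above or below 50% depending on the length. Per principal transcript length, the treated Mpc1 interval includes 50%.

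Reads of Ldha can be taken by copies of the gene. Ldha has many processed pseudogenes, which are intronless copies. In GENCODE M21, 15 pseudogenes alike to it over at least 100 bases at 90% identity or more were found, without a check that each is processed. The symbols of 5 of these match the table, and together these 5 had 18 normal and 20 treated reads, of which Ldha-ps2 had 18 and 12. Adding their reads to Ldha gave a ratio of 0.760. Ldhb-ps had 2 normal reads and no treated one, and Mpc1-ps, 99.4% identical to Mpc1 over 330 bases, had 21 and 14.

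Ldhd, which encodes the mitochondrial enzyme that oxidizes D-lactate, differed least. Its locus is chromosome 8, 112350417 to 112357006, minus strand. It had 354 and 349 reads and stood at 1.505 and 1.498 RPKM, a ratio of 0.995 (0.856 to 1.16). Of its merged exon bases, 42.2% overlap exons of Znrf1 on the opposite strand, which had 1182 and 1324 reads, a ratio of 1.13. The use of strand in counting is not stated, so reads in the shared stretch cannot be assigned to either gene. D-lactate is formed from methylglyoxal, a by-product of glycolysis, by the enzymes of Glo1 and Hagh. Glo1 had normal and treated levels of 2.403 and 2.34 RPKM, a ratio of 0.973 (0.900 to 1.05). Hagh stood at 9.50 and 10.4 RPKM, a ratio of 1.09 (0.989 to 1.202). The intervals of all 3 genes of this route included 1.

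Among the transporter genes, Slc16a1 carried nearly all of the measured level. It encodes MCT1, a high-affinity carrier of lactate and pyruvate, and its locus is chromosome 3, 104545984 to 104565778, plus strand. It had 3147 and 3305 reads and stood at 16.1 and 17.1 RPKM, a ratio of 1.06 (1.01 to 1.11). If both mates of each pair had been counted, as the many even counts in the table leave possible, that interval would be 0.989 to 1.14 and include 1. It also includes 1, barely, when the libraries are scaled by the median of ratios, at 0.9999 to 1.103. Slc16a1 made up 99.1% (98.8 to 99.4) of the summed Slc16a1, Slc16a3 and Slc16a7 levels in normal cells and 99.6% (99.5 to 99.8) in treated cells. In these MIN6 libraries it ranked 3262nd and 3096th among all features.

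Slc16a3 had the smallest ratio of the 9 genes. It encodes MCT4, the exporter of lactate in glycolytic cells and a known target of hypoxia-inducible factors, and its locus is chromosome 11, 120839306 to 120851694, plus strand. It had 29 normal and 8 treated reads, 0.124 (0.0827 to 0.177) against 0.0344 (0.0149 to 0.0678) RPKM. The ratio was 0.279 (0.110 to 0.624), and with 0.5 of the reads its interval would be 0.0670 to 0.880. On the scale of RPKM plus 0.5 the log2 ratio was only -0.22, since the added value exceeds the level itself. Of its exon bases, 5.75% overlap exons of Csnk1d on the opposite strand, which had 4324 and 4247 reads.

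Slc16a7, which encodes MCT2, the carrier with the highest affinity for pyruvate, was at the edge of detection. Its locus is chromosome 10, 125055139 to 125225334, minus strand, and it had 10 normal and 14 treated reads. At 0.0191 and 0.0270 RPKM its ratio of 1.41 had an interval from 0.584 to 3.56. No difference of Slc16a7 was detectable at this depth.

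Bsg encodes basigin, the membrane glycoprotein that MCT1 and MCT4 need to reach the cell surface. Its locus is chromosome 10, 79540325 to 79547803, plus strand, and it was the most abundant of the 9 genes. It had 27114 normal and 22861 treated reads, 338.6 against 288.2 RPKM, a ratio of 0.851 (0.836 to 0.866). The ratio of Bsg was thus below 1 and that of Slc16a1 slightly above it, the latter with an interval that includes 1 under the settings given above. The quotient of Bsg over Slc16a1 went from 21.02 to 16.9, by a factor of 0.803 (0.762 to 0.846). The log2 ratio of Bsg was -0.23, and 10.9% of features had one as low or lower. The related glycoprotein genes of the same list were also below 1. Emb, whose product embigin is a partner of MCT2, stood at 46.2 and 40.0 RPKM, a ratio of 0.865 (0.844 to 0.886). Nptn, which encodes neuroplastin, stood at 13.8 and 13.0 RPKM, a ratio of 0.939 (0.897 to 0.984). Neither reached 1.2-fold.

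Both genes of the mitochondrial pyruvate carrier were lower in the treated library. Mpc1 (chromosome 17, 8501736 to 8516493, plus strand) had 343 and 272 reads, 3.73 against 2.99 RPKM, a ratio of 0.801 (0.680 to 0.942). With 0.5 of the reads its interval would reach from 0.635 to 1.01. Mpc2 (chromosome 1, 165288206 to 165308783, plus strand) had 479 and 339 reads, 1.48 against 1.06 RPKM, a ratio of 0.715 (0.620 to 0.823). With 0.5 of the reads that interval would be 0.583 to 0.874. The quotient of Mpc1 over Mpc2 differed between the libraries by a factor of 1.12, and its interval, 0.902 to 1.39, included 1. Exons of the gene 4930506C21Rik on the opposite strand overlap 23.3% of the Mpc1 exon bases, and that gene also had fewer reads in the treated library, 140 against 192.

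Other genes of the pathway give the setting of these values. Of 19 listed glycolysis and glucose uptake genes 18 were measured at a mean RPKM of at least 1. At least 1.2-fold lower were 5 of these and none was higher by that much, against 8.84% and 8.68% of all features, with a median log2 ratio of -0.21 against 0.0028 for all features. The lowest were the glucose transporter gene Slc2a1 at 0.699 (0.626 to 0.779), Pfkl at 0.774, Slc2a2 at 0.773 and Gpi1 at 0.780. Slc2a2 is also one of the beta cell markers. Only 1 of the 18, Slc2a1, had a lower log2 ratio than Ldha. Of 11 measured genes for the use of pyruvate in mitochondria, 2 were at least 1.2-fold lower and none higher, against the same 8.84% and 8.68%, with a median of -0.04. These were Pcx, which encodes pyruvate carboxylase, at 0.650 (0.604 to 0.700), and the pyruvate dehydrogenase kinase gene Pdk1 at 0.706 (0.655 to 0.761). Pdp2 and Pdk3, with ratios of 0.807 and 0.889, stayed within 1.2-fold on the log2 scale used.

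Beta cells reoxidize glycolytic NADH mainly through mitochondrial shuttles in place of lactate dehydrogenase. Of 9 measured shuttle genes 1 was at least 1.2-fold lower and 1 higher, which is near the 8.84% and 8.68% of all features. These were genes of the glycerol phosphate shuttle. Gpd2, its mitochondrial dehydrogenase gene, went from 13.4 to 9.91 RPKM, a ratio of 0.741 (0.706 to 0.778). Gpd1, the cytosolic one, went from 10.9 to 13.5 RPKM, a ratio of 1.24 (1.15 to 1.33). The other measured shuttle genes included Mdh1 at 0.932 and Slc25a11 at 0.946, and the median log2 ratio of the 9 was -0.04. Of 4 measured genes for alanine transamination and malic enzymes none passed 1.2-fold, against the same 8.84% and 8.68% of all features. Me1 had a ratio of 1.18 (1.13 to 1.23) and Gpt2 one of 1.11 (1.07 to 1.15), while Gpt stood at 0.891 and Me2 at 0.977.

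**Figure D4:**
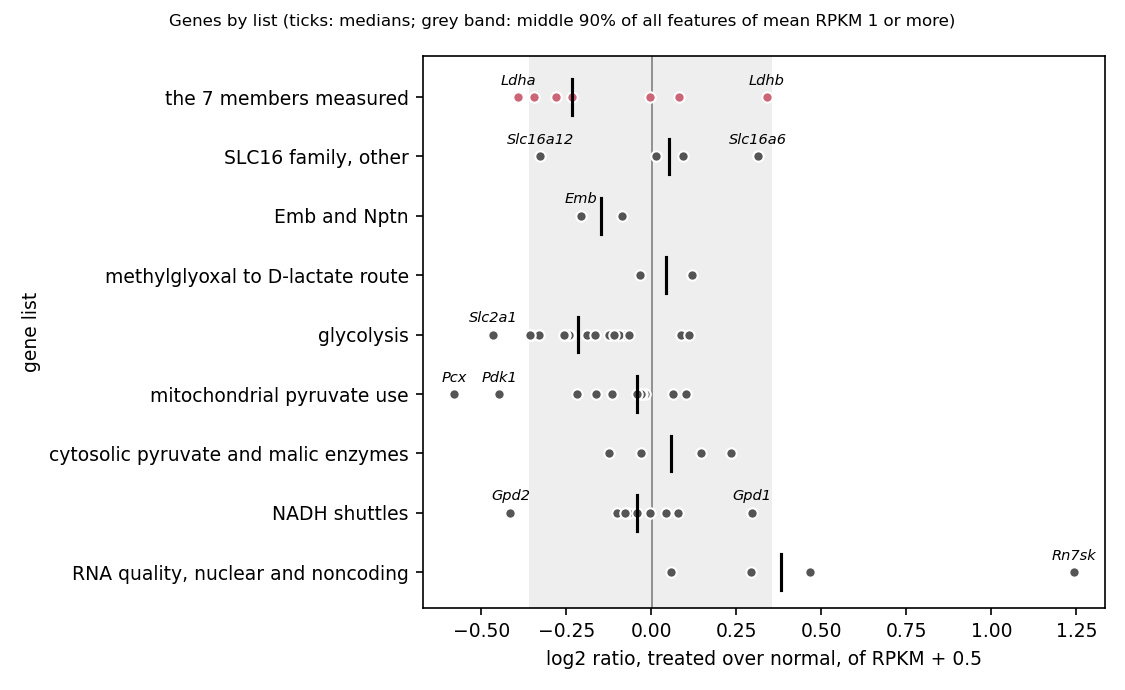
Log2 ratio, treated over normal, of RPKM plus 0.5 for the 7 measured genes (red) and for the measured genes of each list (grey points), with a tick at each median; the grey band holds the middle 90% of all 13947 features, from -0.36 to 0.35, and the line marks their median. Ldha, Slc2a1, Pfkl, Pdk1, Pcx and Gpd2 lie below the band, and only genes of the RNA quality list lie above it.

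Most other members of the SLC16 family were too low to be counted. All 11 had reads, and 4 had a mean RPKM of at least 1. Of these 4, 1 was at least 1.2-fold lower and 1 higher, against 8.84% and 8.68% of all features. Slc16a12, which encodes a creatine transporter, was 1.2-fold lower or more, with 8.32 normal and 6.53 treated RPKM and a ratio of 0.785 (0.727 to 0.847). Slc16a6 was higher by that much, with 2.199 normal and 2.86 treated RPKM and a ratio of 1.30 (1.15 to 1.47). Slc16a10, which encodes a carrier of aromatic amino acids, had a ratio of 1.01 and Slc16a14 one of 1.09. Amz2 on the opposite strand, with 1864 and 1921 reads, overlaps 21.5% of the Slc16a6 exon bases, and exons of Emb, Nptn, Glo1, Slc2a1, Gpd1, Gpd2, Me1, Gpt, Mdh1 and Slc25a11 also overlap opposite-strand genes, over 0.780% to 13.0% of their bases. The sodium-coupled lactate transporter genes Slc5a8 and Slc5a12 had 2 normal reads each and no treated one, and the lactate receptor gene Hcar1 had 1 and 0. No direction can be read from counts under 3. Ldhal6b, a further gene of the lactate dehydrogenase family, had 11 and 13 reads.

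Nuclear and other noncoding RNAs, listed here with RNA quality in mind, also differed between the libraries. RNA quality itself was not measured by them. Of 8 listed, 4 had a mean RPKM of at least 1, and their log2 ratios were all above 0 with a median of 0.38. Of all features with such a mean 49.3% were below 0, with a median of 0.0028. Below that mean, Kcnq1ot1 had a ratio of 1.24 and Meg3 one of 0.865 from 14 and 12 reads. Rpph1 had 6 normal reads and no treated one, and Rmrp had none. Neat1 had a ratio of 1.23, Snhg1 one of 1.40, Rn7sk one of 3.20 from 12 and 38 reads, and Malat1 one of 1.04. The part of RNA quality in the results was not tested.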

How the data were processed

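The deposited values are RPKM that the authors computed for 1 normal and 1 treated library. Per the submitters' processing notes Trimmomatic 0.36, edgeR 3.12.1 and build GRCm39 were used, while aligner, counter, annotation and use of strand are not named there. The deposited length of each feature, in bases, is that of its merged exons. RPKM times length gave whole reads for 100% of values within 0.01 read, with totals of 44149406 and 43727919. Ratios got exact Clopper-Pearson intervals and levels exact Poisson ones, both at 95%. Quotients of gene pairs got intervals of a conditional odds ratio. Shares got Clopper-Pearson intervals, approximate for the transporter genes because the mean length of the others was taken as fixed. Reads lack molecular identifiers, so intervals cover counting error only. Counts used log2 of RPKM plus 0.5 at a mean RPKM of at least 1, a scale that understates differences of low genes. Steps were tested on simulated data.

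The 9 genes and the lists were chosen with earlier results of these data known. The genes named are all 9, at most 4 of each list by size of ratio or all of a list of 3 or fewer, and pseudogenes of the 9. A few other list genes and markers are named for range, after their values were seen. Some listed symbols have no value used here. Pseudogenes were found with blastn 2.17.0 in GENCODE M21 (GRCm38). Python 3.11.15, scipy 1.17.1, pandas 2.3.3 and matplotlib 3.10.9 were used. Alternatives were 3 scalings, pseudocounts of 0.1 and 1, other filters and thresholds, intervals from 0.5 of the reads, and added pseudogene reads. Transcript lengths and the wider set of pseudogenes were added after seeing the data.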

Additional observations from a re-analysis of the deposited data

How the results depend on the processing

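No paired analysis was possible because each group has 1 library, and for the same reason no replicate could be left out. All 9 ratios stayed within their counting intervals under the 3 scalings, which moved the treated values by factors of 0.990 to 1.01. So did those of Ldha, Ldhb and Mpc1 with pseudogene reads added, which was run for these 3 genes alone and only with copies that have a value under their symbol. Counting 0.5 of the reads brought the intervals of Slc16a1 and Mpc1 to include 1, as median-of-ratios scaling also did for Slc16a1 (0.9999 to 1.103). With 0.5 of the reads the intervals of Ldha, Ldhb, Slc16a3, Bsg and Mpc2 stayed on their side of 1, that of Ldhb only just, at 1.007 to 1.71. A pseudocount of 1 left 2 of the 7 genes lower, Ldha and Mpc2, and 1 higher, against 1040 lower and 984 higher of the 13947 features. A mean RPKM of at least 5 kept 3 of the genes, of which 1 was lower and 0 higher, and counted 580 features lower and 437 higher. The number of features kept by that filter was not recorded, so no share is given for it. That filter left 0 higher genes in the SLC16 list and 1 lower gene in the list of pyruvate use. Without a filter 2680 features were lower and 2968 higher, and 1 RNA of the quality list was lower. A fold of 1.5 gave 0 and 0 of the genes against 207 and 243 features. Intervals that exclude 1 gave 4 lower and 2 higher genes against 3104 lower and 3069 higher features. Transcript lengths moved the shares, normal and treated, to 94.6% and 91.1% for Ldha, 5.36% and 8.90% for Ldhb, 97.8% and 98.8% for Slc16a1, 1.67% and 0.444% for Slc16a3, 0.568% and 0.766% for Slc16a7, and 44.4% and 47.2% for Mpc1, by the construction of that alternative.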

Other observations

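Recovered read counts were more often even than odd among weakly read features. Of 8503 features with 1 to fewer than 20 reads in the normal library, 75.5% had an even count, against 53.9% of 13407 features with at least 100 reads. Slc16a3, with 29 and 8 reads, and Slc16a7, with 10 and 14, had the fewest reads and the widest counting intervals of the 9 genes. The remaining weakly read members of the SLC16 family had ratios on both sides of 1, from 0.908 for Slc16a13 to 1.37 for Slc16a4, and all of their intervals included 1.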
